A study of Drosophila melanogaster with 4 samples.

Results

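The T-box genes H15, midline (mid) and bifid (bi, also called optomotor-blind) were described here through the H3K27me3 domains over their loci in whole third-instar larvae of Drosophila melanogaster. The members were the ChIP-seq clusters, that is, the regions of enrichment listed by the authors, that overlapped 2 windows of 210 kb given in FlyBase release 5 coordinates. The window of H15 and mid was 2L:5330000-5540000, and that of bi was X:4240000-4450000. The members were chosen by position, but the windows were set around broad clusters that these same lists had already shown. Their coverage, widths and scores are therefore descriptions and carry no test. The windows held 22 of the 9295 clusters in 3 lists: 9 of 2510 in replicate 1, 6 of 1819 in replicate 2, and 7 of 4966 in a combined list of the whole series. The combined list has no ChIP libraries other than these replicates behind it, and is not a further measurement.

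All libraries came from wild-type Oregon-R larvae, with no transgene or treatment named in the labels. Chromatin was fixed with formaldehyde, sonicated and precipitated with a mouse monoclonal antibody against H3K27me3. There were 2 ChIP libraries and 2 input libraries, of which only the ChIP libraries enter the results. The labels do not say whether the replicates were separate collections of larvae, so the spread between them may be technical. The number of reads per library is unknown, and with it how far the number, width and edges of clusters depend on depth. Cells of all tissues were averaged, so a cluster does not show which cells carried the mark.

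T-box proteins are transcription factors that bind DNA through a shared domain, the T-box. H15 and mid are neighbouring genes related to vertebrate Tbx20; they act in the embryonic heart and nervous system and give ventral identity to the developing leg. The gene bi is related to the vertebrate Tbx2 group; it is a target of Dpp signalling in the wing disc, acts in dorsal leg fate, and is needed for the optic lobe. Trimethylation of H3K27 is laid down by Polycomb repressive complex 2 and often spreads over the full regulatory surroundings of such developmental genes.

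The gene table at hand is of release 6, so no gene coordinates are given. In it, 4 long non-coding RNA genes and 1 snoRNA gene, and no other protein-coding gene, lay between H15 and mid. The nearest protein-coding gene among the 3 neighbours on the H15 side was nompC, which encodes a mechanosensory channel, and the protein-coding neighbours on the mid side were CG14020 and CG7382. The 3 neighbours of bi on its left were 2 long non-coding RNAs and an antisense RNA. On its right they were the protein-coding genes CG3556, rb (a subunit of the AP-3 adaptor complex, known for its eye colour phenotype) and CHOp24. With the shifts between releases that define the windows (0 on 2L and about 106 kb on X), all 3 T-box genes fell wholly inside the widest combined cluster of their window, and they did so with the shift changed by 20 kb in either direction. These shifts could not be checked against a release 5 genome here.

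Each locus lay in 1 broad domain in the combined list. The H15 and mid domain ran over 2L:5349966-5518820 and was 169 kb wide, with width rank 3 in that list. The bi domain ran over X:4264919-4427987 and was 163 kb wide, with width rank 6. The domain with a pair of T-box genes was thus 5.79 kb wider in this list than the domain with a single T-box gene. Whether the neighbouring genes lie inside the domains was not examined. From first to last piece, H15 and mid spanned 167 kb and bi 159 kb in replicate 1, and 168 and 163 kb in replicate 2. The widest piece had width rank 2 at H15 and mid and 14 at bi in replicate 1, and ranks 5 and 8 in replicate 2.

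**Figure D1:**
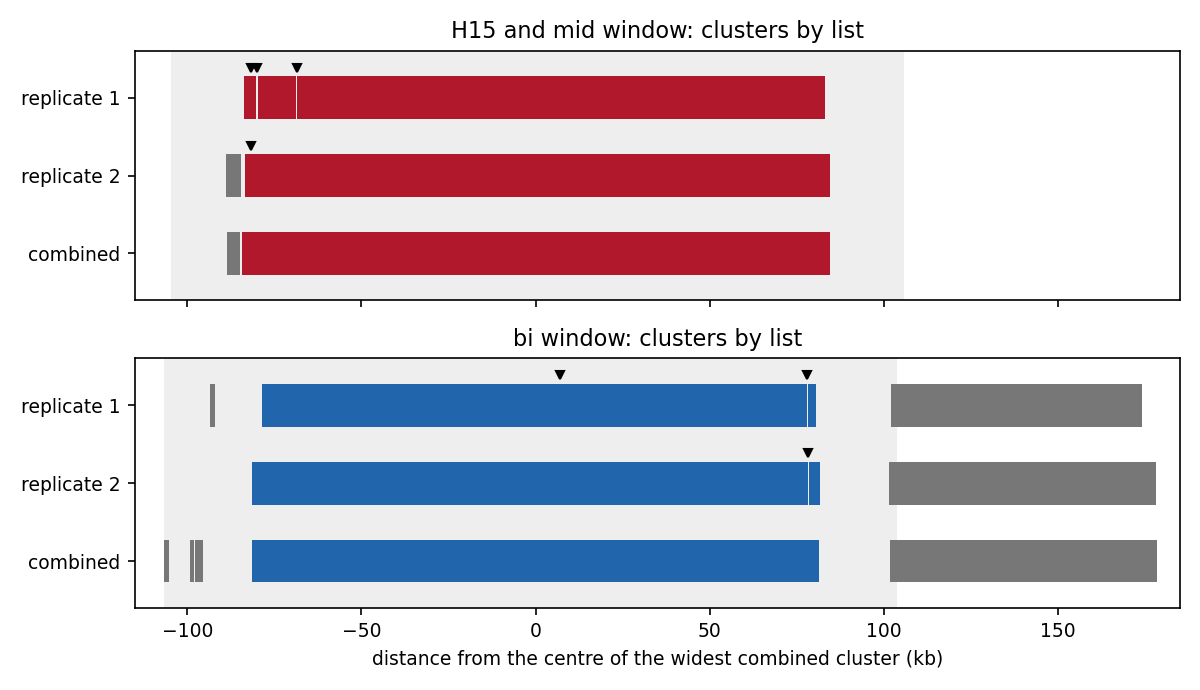
Clusters of each list in the H15 and mid window (top) and the bi window (bottom), by distance in kb from the centre of the widest combined cluster; grey shading marks the window, coloured bars are clusters of the domain, dark grey bars other clusters, and triangles breaks between pieces. Breaks in the H15 and mid domain lie at its left end. The bi domain is broken near its right end in both replicates, and in replicate 1 also near its middle, by 2 bp. The broad cluster to the right of bi enters its window in all 3 lists.

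Covered length differed little between the loci. Clusters covered 78.9% of the H15 and mid window in replicate 1 and 81.8% in replicate 2, a mean of 80.4% ± 2.02 (SD, n = 2). They covered 77.0% of the bi window in replicate 1 and 78.5% in replicate 2, a mean of 77.7% ± 1.08 (SD, n = 2). The H15 and mid window was the more covered in both replicates, and its lower value was above the higher value of the bi window by less than the spread of either. The difference was 2.64 ± 0.936 percentage points (SD, n = 2), of 1.97 points in replicate 1 and 3.30 in replicate 2. It turned to -5.80 points with windows widened by 20 kb on each side, which take in more of a separate cluster to the right of bi. In the combined list the values were 82.2% for H15 and mid and 80.6% for bi.

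Both windows were more than 50% covered in every list, and most stretches of that length on the arms were far less covered by clusters. When the 6 arms were divided into 569 tiles as long as the windows, the median tile was 3.41% covered in replicate 1, 3.13% in replicate 2 and 9.68% in the combined list. Of the tiles, 4.22% reached 50% in replicate 1, 6.68% in replicate 2 and 8.26% in the combined list. Coverage equal to or above that of the H15 and mid window was found in 3 tiles of replicate 1, 5 of replicate 2 and 5 of the combined list. For the bi window the counts were 3 in replicate 1, 6 in replicate 2 and 5 in the combined list. The windows were placed around known domains and the tiles were not, so nothing follows from the contrast.

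**Figure D2:**
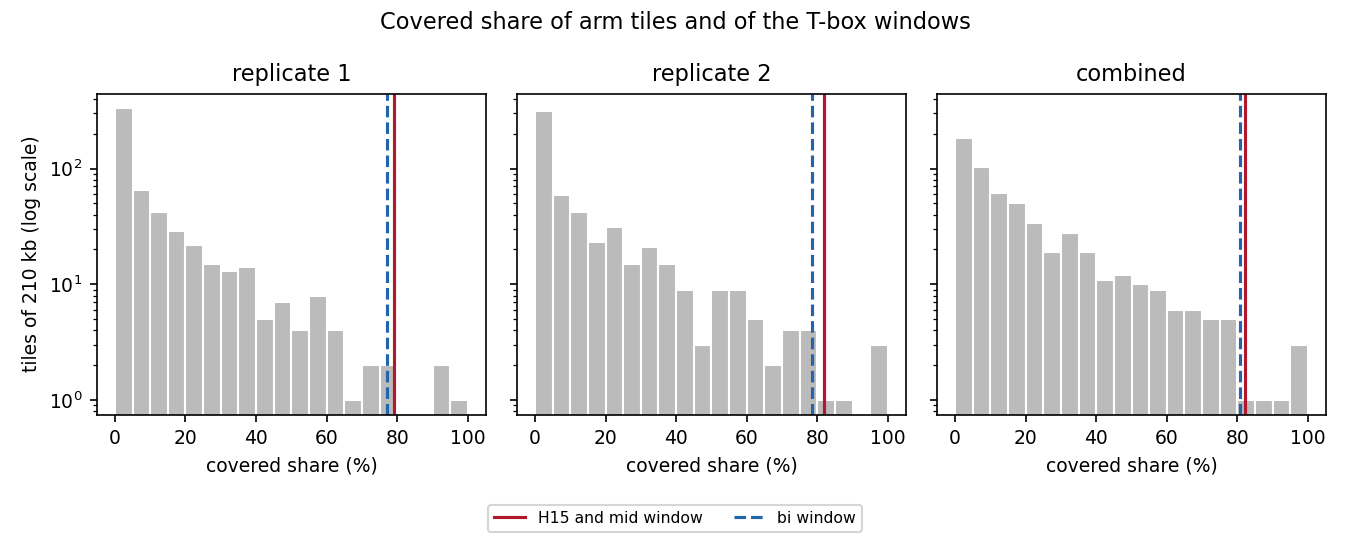
Number of 210 kb tiles of the 6 arms (log scale) by covered share in percent, for each list; the solid line is the H15 and mid window and the dashed line the bi window. Both lines stand between 77.0% and 82.2%, whereas the median tile is at 3.41%, 3.13% and 9.68% in replicate 1, replicate 2 and the combined list.

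Inside the domains the replicates left little open. The domains were taken from the combined list, which has no other ChIP libraries behind it. High coverage by the replicates is therefore partly built into the definition. Of the H15 and mid domain, 98.2% was covered in replicate 1 and 99.3% in replicate 2 (98.7% ± 0.770, SD, n = 2). Of the bi domain, 97.3% was covered in replicate 1 and 99.9% in replicate 2 (98.6% ± 1.83, SD, n = 2). In base pairs, replicate 1 left 3064 bp of the H15 and mid domain uncovered and replicate 2 left 1225 bp. At bi the open lengths were 4426 bp in replicate 1 and 204 bp in replicate 2. The replicates disagreed in which domain was more complete: H15 and mid in replicate 1, bi in replicate 2. Sequence covered in both replicates was 96.1% of that covered in either, in the H15 and mid window as in the bi window.

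The number of pieces was close as well, but their sizes were not alike in replicate 1. There the H15 and mid domain consisted of 4 clusters, of 1863, 1390, 10946 and 151592 bp from left to right. The bi domain consisted of 3, of 85412, 70910 and 2321 bp. The largest piece made up 90.9% of the span at H15 and mid and 53.7% of the span at bi. In replicate 2 both domains were of 2 pieces, 1574 and 166056 bp at H15 and mid, and 159764 and 3178 bp at bi. The largest then made up 99.0% of the span at H15 and mid and 97.9% at bi. The mean number of pieces was 3 ± 1.41 at H15 and mid and 2.5 ± 0.707 at bi (SD, n = 2), a difference within the replicate spread.

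The low share of the largest piece at bi in replicate 1 came from a single break of 2 bp. It lay at X:4353368-4353369, 88.4 kb from the left edge of the combined domain, and replicate 2 had no break there. With the shift given for X, this break fell inside the bi gene, which 2 replicate 1 clusters therefore covered up to those 2 bp. H15 and mid each lay in 1 cluster in both replicates.

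All other breaks lay near an edge. At H15 and mid they were at the left end: replicate 1 had breaks of 40, 614 and 233 bp within 15.9 kb of the left edge of the combined domain, and replicate 2 had 1 of 152 bp. The replicate 1 break at 2L:5352628-5352667 lay wholly within the replicate 2 break at 2L:5352611-5352762, so a stretch 2.66 kb from the left edge was open in both. The longer replicate 1 breaks were filled in replicate 2. At bi each replicate was broken close to the right end, by 339 bp at X:4424280-4424618 in replicate 1 and by 174 bp at X:4424713-4424886 in replicate 2. These breaks were 94 bp apart and did not overlap: each was filled in the other replicate. The combined list had no break inside either domain.

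The outer edges differed between replicates by 272 to 3007 bp. The left edge of the H15 and mid domain was at 5350765 in replicate 1 and at 5351037 in replicate 2, so replicate 1 reached 272 bp further out. Its right edge was at 5517442 in replicate 1 and at 5518818 in replicate 2, and replicate 2 was 2 bp short of the combined edge. At bi, replicate 2 reached further at both edges, by 3007 bp on the left (4267956 in replicate 1, 4264949 in replicate 2) and by 1125 bp on the right (4426939 and 4428064). Among the other 24 combined clusters of 100 kb or more, the median distance between replicate edges was 1043 bp on the left and 500.5 bp on the right. The left distance was below that median at H15 and mid and above it at bi, and the right distance was above it at both.

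The flanks of the domains differed in what stood next to them. Left of H15 and mid, replicate 2 had a further cluster of 4162 bp, 1281 bp from the domain, and the combined list had one of 3860 bp, 378 bp away. Replicate 1 had no cluster there: its next one on the left was 37.2 kb off. To the right of H15 and mid the next cluster of any width was 47.1 kb away in replicate 1, 45.9 kb in replicate 2 and 38.5 kb in the combined list.

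At bi a second broad cluster followed on the right. It ran over X:4448472-4520609 in replicate 1, X:4448078-4524509 in replicate 2 and X:4448144-4524947 in the combined list, with widths of 72.1, 76.4 and 76.8 kb. The stretch X:4428065-4448077, 20.0 kb long, separated it from the bi domain and held no cluster in any list. Only 1529 bp of this neighbour in replicate 1 and 1923 bp in replicate 2 lay inside the bi window. Left of bi, replicate 1 had 1 cluster of 1473 bp at X:4253042-4254514. The combined list had 3 narrow clusters in the window there, of 1001 to 2238 bp, none of which overlapped it, and replicate 2 had none.

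The distance to the nearest combined cluster of 5 kb or more was 93.1 kb for the H15 and mid domain and 20.2 kb for the bi domain. Across the other 24 combined clusters of 100 kb or more it had a median of 3.69 kb and ranged between 0.017 and 580 kb. It was longer than for H15 and mid at 3 of the 24 and longer than for bi at 6 of them. This measure was chosen after the lists had been seen, and the comparison with the other 24 holds for the combined list alone. In the replicates' own lists the distance was 406 kb in replicate 1 and 404 kb in replicate 2 for H15 and mid. For bi it was 21.5 kb and 20.0 kb. The 5 kb limit leaves out the combined cluster of 3860 bp that lay 378 bp from the H15 and mid domain.

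The score is the authors' own value per cluster on a scale that no source at hand states, and it serves here for ranks within a list alone. The leading bi cluster ranked above the leading H15 and mid cluster in every list, although it was the narrower. The clusters compared lie on different chromosomes, X and 2L, and an effect of this on the score was not tested. In replicate 1 the 151592 bp cluster of H15 and mid had a score of 1.52 and rank 91 of 2510. The 85412 bp cluster of bi had 1.93 and rank 28, but the adjoining 70910 bp cluster of bi had 1.44 and rank 103, below H15 and mid. The order in replicate 1 thus depends on which side of the 2 bp break is taken.

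In replicate 2 the scores were 2.39 at rank 60 of 1819 for H15 and mid and 2.59 at rank 39 for bi. In the combined list they were 2.00 at rank 99 of 4966 and 2.22 at rank 73. Among combined clusters of 5 kb or more these ranks were 63 and 41 of 553. The pieces at the domain ends ranked below the leading ones. In replicate 1 the 3 left pieces of H15 and mid had 0.512 to 0.716, above 9.56% to 64.4% of the list. The right piece of bi there had 0.838, above 82.2% of it. In replicate 2 the left piece of H15 and mid had 0.520, above 13.7% of the list, and the right piece of bi had 0.905, above 81.4% of it.

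**Figure D3:**
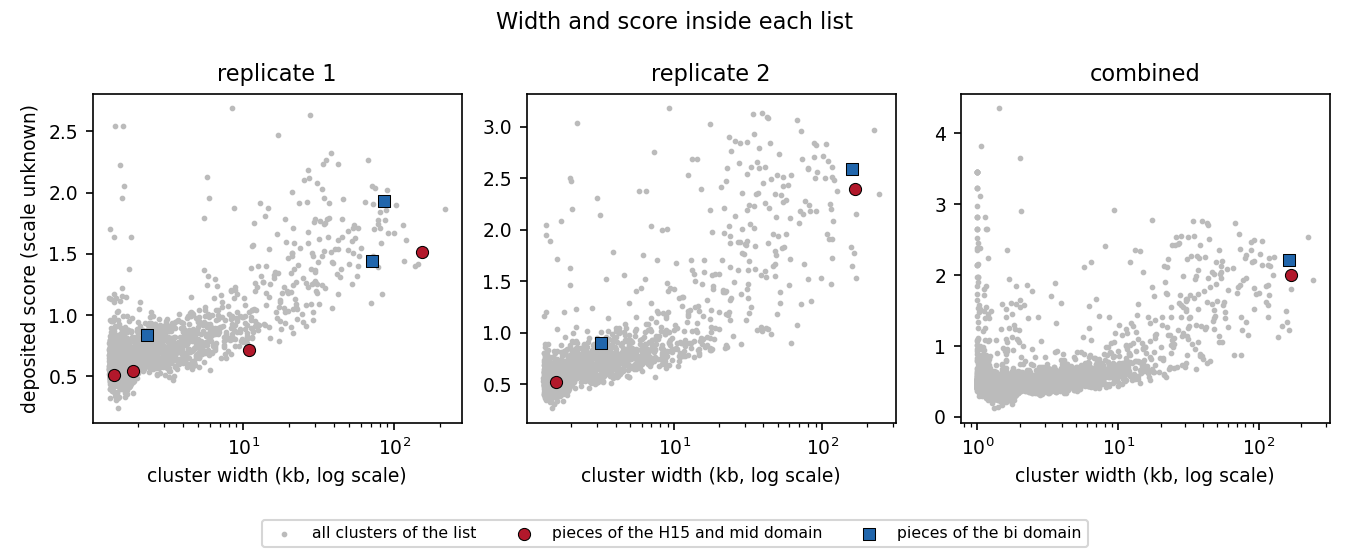
Deposited score (scale unknown) against cluster width in kb (log scale) in each list; grey points are all clusters, circles the pieces of the H15 and mid domain and squares those of the bi domain. The leading bi piece stands above the leading H15 and mid piece in all 3 panels, and in replicate 1 the second large bi piece, with 1.44, stands below it.

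Set among the 26 combined clusters of 100 kb or more, of which 7 were on 2L and 5 on X, the T-box domains were more covered and in fewer pieces than the median of the others in replicate 1. Its coverage of 98.2% at H15 and mid was higher than at 19 of the other 24 domains, and its 97.3% at bi was higher than at 14 of them. Those 24 ranged between 68.1% and 99.7%, with a median of 95.8%. Replicate 1 split them into 1 to 22 clusters, with a median of 6. At 9 of the 24 there were fewer pieces than the 4 of H15 and mid, and at 5 fewer than the 3 of bi.

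In replicate 2 the order was different. Each T-box domain was in 2 pieces, more than at 20 of the other 24 domains, where the median was 1 piece. The coverage of 99.3% at H15 and mid was above that of 2 of the 24, and that of 99.9% at bi was above 10, while the median of the 24 was 99.97%. No test was made of any of these differences, since all the lists were in view when the loci were chosen.

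**Figure D4:**
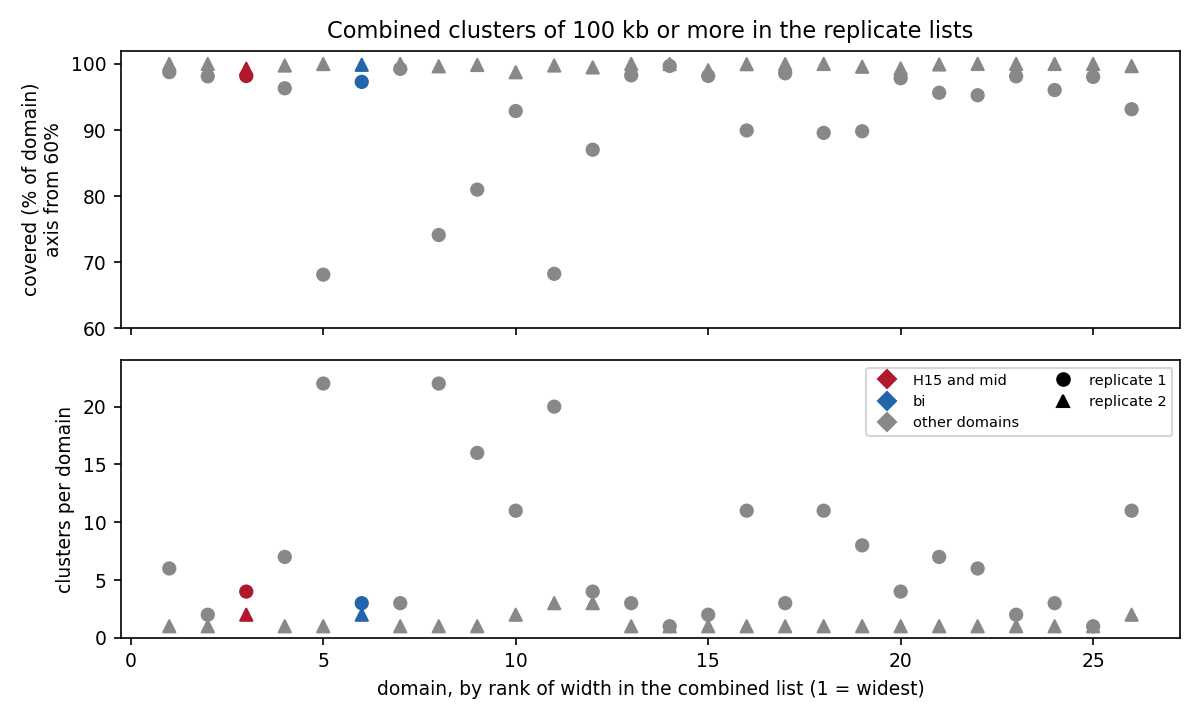
The 26 combined clusters of 100 kb or more, ordered by width: share of each covered by a replicate list in percent (top, axis starting at 60%) and number of replicate clusters in each (bottom); circles are replicate 1 and triangles replicate 2, with H15 and mid in red, bi in blue and the other 24 in grey. In replicate 1 the T-box domains are at 98.2% with 4 clusters and 97.3% with 3, while the others reach down to 68.1% and up to 22 clusters.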

How the data were processed

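The deposited values were 3 GFF3 lists of H3K27me3 clusters, 1 per ChIP replicate and 1 combined, on FlyBase release 5, per the file headers. Reads were handled with Bowtie 0.12.7, per the submitters' processing notes. How clusters were called, at which threshold, whether input was used and how the lists were combined is not given in the sources. The score of a cluster is the value deposited by the authors, of unknown scale, compared only within a list. No filter was applied. Covered shares are unions of clusters within a window or within its widest combined cluster (the domain), and pieces are clusters that overlap the domain by at least 1 bp. The plan was to name clusters of 5 kb or more in a window and the widest break between pieces. Narrower clusters were added after their values were seen, and the other breaks were not in that plan. The windows and measures were chosen with earlier results of these data known. A planned comparison of proteins and promoters was not made. Gene names came from the RefSeq table of release 6, where all 3 genes matched. No test was made: 2 replicates per locus are too few. The interval code was tested on simulated data, where 0 of 200 simulated list pairs differed from counting single bases. Computation used Python 3.11.15, numpy 2.4.6 and pandas 2.3.3, and plots matplotlib 3.10.9. Alternatives were score and width filters, joining of close clusters, wider windows, another domain span, a 50% overlap rule and single replicates.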

Additional observations from a re-analysis of the deposited data

How the results depend on the processing

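Covered share kept its value within 1 SD of the replicates under the score filter and joining. With clusters of 5 kb or more it was 78.2% for H15 and mid and 76.1% for bi. Windows widened by 20 kb gave 67.9% and 73.7%, which reversed the difference to -5.80 points because the cluster right of bi then adds to its window. Without that cluster, an alternative chosen after seeing the data, the bi window was at 76.9% and the difference at 3.46 points. Only the bi window was trimmed in this way. The separate cluster of 4162 bp left of H15 and mid in replicate 2 was kept, which favours H15 and mid in this difference. Mean pieces at H15 and mid were 1.5 with clusters at or above the median score and 1.5 with clusters of 5 kb or more. At bi they were 2.5 with the score filter and 1.5 with the width filter. Joining clusters closer than 1 or 5 kb left 1 piece at both. Coverage of the H15 and mid domain was 97.3% under either filter. That of the bi domain was 98.6% with the score filter and 96.9% with the width filter. With the score filter bi thus had more pieces and higher coverage than H15 and mid, the reverse of the order without filters. The overlap of the replicates at H15 and mid was 95.5% with the score filter, 97.9% at 5 kb or more, 96.6% and 96.2% with joining at 1 and 5 kb, and 95.1% in wider windows. At bi it was 96.9%, 97.6%, 96.4%, 96.4% and 95.6%. Single replicates gave 78.9% to 81.8% and 77.0% to 78.5% for the windows, 2 to 4 and 2 to 3 pieces, 98.2% to 99.3% and 97.3% to 99.9% for the domains, and a difference of 1.97 to 3.30 points; each lies within 1 SD of the mean by construction. The difference between the loci was taken within each replicate. No paired analysis was possible because, for ChIP against input, the groups that share replicate numbers, no input values were analysed. Depth is unknown and was not tested.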
